A study of Mus musculus with 6 samples.

Results

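The genes described here encode cytochrome P450 enzymes, flavin-containing monooxygenases (Fmo) and the alpha, mu, pi, theta and omega classes of cytosolic glutathione transferase. They were taken by symbol (Cyp, Fmo, Gsta, Gstm, Gstp, Gstt or Gsto, without Cyp51 and Cyp2f2), from probes with a signal flagged as well above background on 2 or more of the 6 arrays. Of 161 such genes in the RefSeq gene table, 122 had a probe on the array and 84 were kept. A value on all 6 arrays was at hand for 83, out of 16420 genes measured in the same way. Among these 83, Cyp2d13 and Cyp4b1-ps2 are listed as transcribed pseudogenes. Of the 83, 70 were above background on all 6 arrays, 2 on 5, 3 on 3 and 8 on 2, the lowest number allowed. Of the 38 genes not kept, 7 were above background on 1 array and 31 on none.

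The study followed silicosis, the scarring lung disease caused by inhaled silica, in lung cells that lack the leukocyte antigen CD45. Cells came from Ccr2KO mice (strain B6.129S4-Ccr2tm1Ifc/J, without the chemokine receptor CCR2) and from WT mice (C57BL/6J), aged 7 to 9 weeks at the start. In each genotype they were taken untreated (day 0), at day 28 and at day 40 after silica was aspirated into the lung, from digested lungs by a Percoll gradient and magnetic sorting. Each of the 6 groups was 1 RNA pooled from 3 biological replicates and hybridised to 1 one-colour array, so no group had a replicate and the spread between animals was not measured. Ccr2, the targeted gene, read −5.07, −1.51 and −3.64 in Ccr2KO cells (untreated, day 28, day 40) and 0.09, 1.38 and −1.70 in WT cells, lower in Ccr2KO on each day. Levels are given as log2 signal minus the 75th percentile of the array, and they compare arrays for one gene, not genes with each other.

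Cytochrome P450 enzymes insert oxygen into drugs, pollutants, steroids, fatty acids and vitamins. They draw electrons from the reductase encoded by Por or, in mitochondria, from ferredoxin. Flavin-containing monooxygenases oxidise nitrogen and sulphur in drugs and nutrients, and glutathione transferases attach glutathione to reactive products so that they can leave the cell. In the lung these enzymes are known from club cells, alveolar type 2 cells, endothelium and fibroblasts, and some P450s there act on signals such as retinoic acid, vitamin D and oxysterols rather than on foreign chemicals.

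Promoter windows are shown for Cyp1a1 and Cyp1b1, which are classical targets of the aryl hydrocarbon receptor (AhR) and had unlike values after silica, and for Cyp26a1, a classical target of retinoic acid receptors. Each window runs from 250 bases before to 50 bases after the annotated start, as given by RefSeq for GRCm38.p6, and is printed on the strand of the gene. The Cyp1a1 window is chr9:57697363-57697662 on the plus strand, with capitals on GCGTG, the core of the element that the AhR binds, at base −54. The Cyp1b1 window is chr17:79715012-79715311 on the minus strand, with capitals on the same core read on the opposite strand, at base −76. The Cyp26a1 window is chr19:37697558-37697857 on the plus strand, with capitals on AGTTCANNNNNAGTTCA, a direct repeat of the retinoic acid receptor half-site, read on the opposite strand at base −32.
Cyp1a1: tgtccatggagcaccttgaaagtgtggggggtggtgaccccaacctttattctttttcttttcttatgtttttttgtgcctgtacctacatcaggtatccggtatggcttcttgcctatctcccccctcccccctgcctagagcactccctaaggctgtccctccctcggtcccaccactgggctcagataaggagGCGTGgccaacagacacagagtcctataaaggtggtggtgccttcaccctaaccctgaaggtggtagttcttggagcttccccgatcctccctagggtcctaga
Cyp1b1: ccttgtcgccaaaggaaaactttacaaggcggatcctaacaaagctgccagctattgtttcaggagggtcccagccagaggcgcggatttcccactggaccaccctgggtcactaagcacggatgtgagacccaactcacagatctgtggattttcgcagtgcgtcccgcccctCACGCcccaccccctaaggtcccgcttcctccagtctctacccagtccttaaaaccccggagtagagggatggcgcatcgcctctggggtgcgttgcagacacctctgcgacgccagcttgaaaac
Cyp26a1: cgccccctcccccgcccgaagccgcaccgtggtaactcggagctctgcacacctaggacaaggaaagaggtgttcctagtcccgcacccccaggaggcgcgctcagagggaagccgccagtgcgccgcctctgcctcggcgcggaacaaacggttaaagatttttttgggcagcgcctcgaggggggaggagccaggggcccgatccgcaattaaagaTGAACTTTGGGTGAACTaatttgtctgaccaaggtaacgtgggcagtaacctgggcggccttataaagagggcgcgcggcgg
Both strands were searched. GCGTG stood in 32.4% of all 32851 RefSeq windows. Counted by gene, it stood in 35.2% of all genes with a window and in 18 of the 62 tested ones (29%), so its presence was common. The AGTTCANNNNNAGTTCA repeat, which was chosen after the Cyp26a1 window had been read, stood in 8 windows, 0.0244% of all. By gene, it stood in 0.0296% of all genes with a window and in 1 of the 62. TGACNNNGC, the core of the element that NRF2 binds, stood in 12.4% of windows, in 14.0% of all genes with a window and in 6 of the 62. Of genes with a window, it stood in 1 of 14 that fell after silica, Gsta3, and in 0 of 5 that rose. It also stood in Cyp4f18, which was lower at day 40 than at day 28. A match is a stretch of letters and no evidence that a factor bound there.

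Averaged over the genotypes, and with days 28 and 40 set together against untreated cells, 22 of the 83 genes fell after silica and 7 rose. The fallers included all 5 measured Fmo genes, Cyp4b1, Cyp2b10 and Gsta3. Risers above background on all 6 arrays were led by Cyp1b1 and Cyp7b1. The 7 also include Cyp24a1, Cyp26a1 and Cyp19a1, which were kept through silica arrays alone. The 22 include Cyp4a12a, which was kept through the untreated arrays alone. For these genes the filter itself favoured the direction, so their calls are not independent of it. Of the 83, 26.5% were lower and 8.43% higher, against 9.33% lower and 10.5% higher among all genes tested (limma, adjusted p below 0.05, 4 silica and 2 untreated arrays). In either direction 29 passed (34.9%), against 19.9% of all genes, and the median difference was −0.31 for the 83 and −0.01 for all genes (log2). Counted array by array, 9 of the 83 were at least 2-fold lower on every silica array than on the untreated array of the same genotype. The share of all genes was 1.66%, and Cyp4a12a is among the 9. At least 2-fold higher on every one were 2, Cyp1b1 and Cyp7b1, against 3.38%. Lower to any extent on every silica array were 41 of the 83, against 28.7% of all genes, and 11 were higher on every one, against 25.4%. Over the 70 genes above background on all 6 arrays, 20 were lower and 4 higher. The matching shares among all genes with this filter were not counted.

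**Figure D1:**
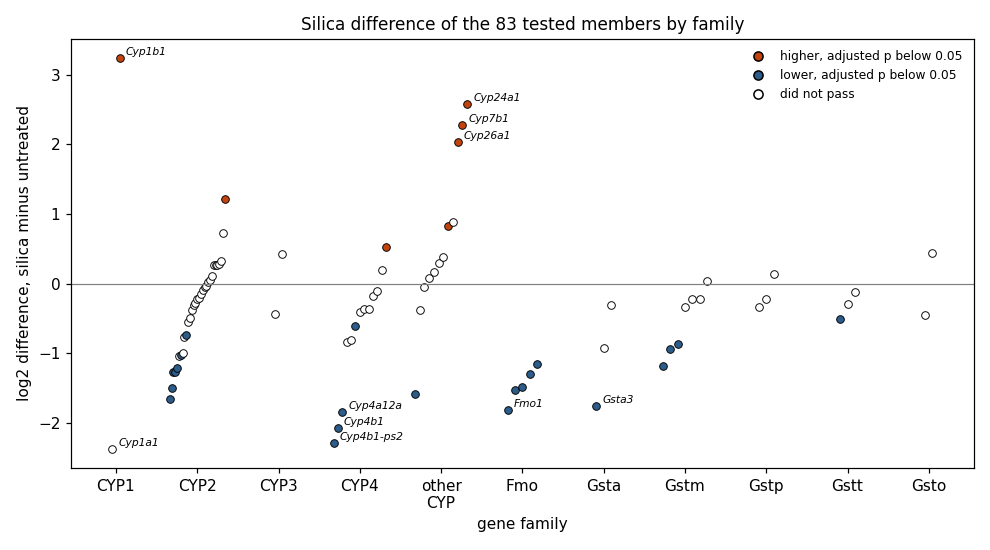
Log2 difference of silica (days 28 and 40 averaged) from untreated cells, averaged over genotypes, for the 83 tested genes, 1 point per gene, by family. All 5 Fmo points are filled as lower and lie between −1.82 and −1.15, while Cyp1b1 stands at 3.23 and Cyp7b1 at 2.27; only bounds hold for Cyp24a1, Cyp26a1, Cyp19a1 and Cyp4a12a, drawn at values that include signals not above background.

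The Fmo family moved as a block. Fmo1 read 4.14, 2.45 and 2.31 in Ccr2KO cells (untreated, day 28, day 40) and 4.73, 2.78 and 2.91 in WT cells. Every silica array lay below both untreated arrays, and the log2 difference was −1.82 ± 0.11 (± SE, limma adjusted p = 0.00759). Fmo2, the main flavin-containing monooxygenase of the lung in most mammals, read 5.89, 3.68 and 4.10 in Ccr2KO cells and 5.25, 4.29 and 4.09 in WT cells. It fell by 1.53 ± 0.28 (limma adjusted p = 0.0317), without overlap of silica and untreated arrays. Fmo4, a sparsely studied member, read −3.62, −4.97 and −5.18 in Ccr2KO cells and −2.97, −4.32 and −4.63 in WT cells. Its difference was −1.48 ± 0.09 (limma adjusted p = 0.00759), and the Ccr2KO day 40 signal was not above background. Fmo5, which can also insert oxygen next to a ketone, read 2.21, 1.02 and 0.96 in Ccr2KO cells and 2.28, 1.1 and 1.28 in WT cells, a difference of −1.15 ± 0.11 (limma adjusted p = 0.0105). Other Fmo5 probes gave −1.37 and −0.45, and a second probe of Fmo1 gave −1.64. Fmo1, Fmo2 and Fmo4 lie on chromosome 1 and Fmo5 on chromosome 3 in the RefSeq table.

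**Figure D2:**
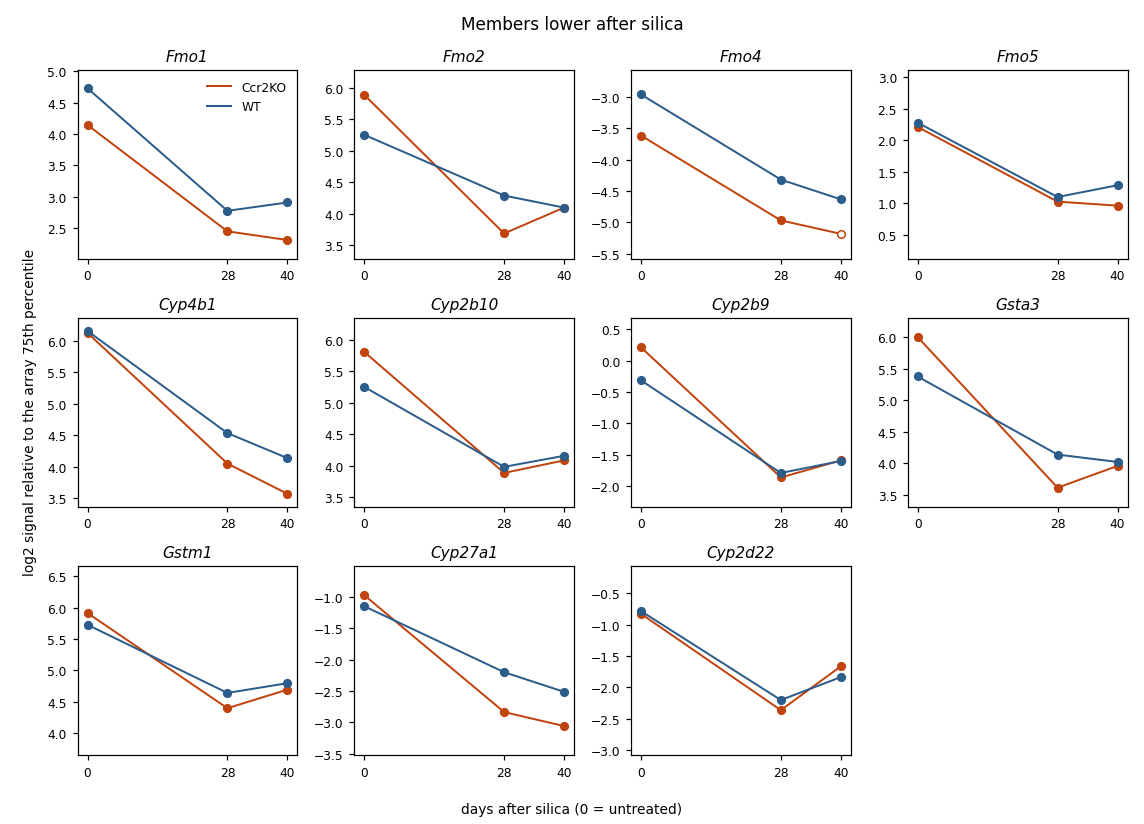
Log2 level on each array for 11 genes that were lower after silica, by days after silica, with Ccr2KO and WT as separate lines and open points for signals not above background. In each panel the silica points lie below the untreated points of both genotypes; Fmo1, for example, stood at 2.31 to 2.91 after silica and at 4.14 and 4.73 untreated.

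Of the 31 measured CYP2 genes, whose products mostly oxidise drugs and fatty acids, 7 fell, 1 rose and 23 did not pass (median −0.22). Cyp2b10, the mouse P450 best known for induction by phenobarbital through the receptor CAR, read 5.81, 3.88 and 4.08 in Ccr2KO cells and 5.25, 3.98 and 4.16 in WT cells. Silica and untreated arrays did not overlap, and the difference was −1.5 ± 0.18 (limma adjusted p = 0.0151). Cyp2b9, which in liver is mostly female, went the same way (−1.66 ± 0.16, limma adjusted p = 0.0114). Their relative Cyp2b13 rose instead, with −3.58, −2.56 and −1.58 in Ccr2KO cells and −3.70, −2.99 and −2.57 in WT cells (1.22 ± 0.21, limma adjusted p = 0.0279). The 3 genes lie on chromosome 7. The CYP2D genes of chromosome 15, relatives of the human debrisoquine hydroxylase, had 4 of 9 measured members lower, with a median of −0.74. These were the transcribed pseudogene Cyp2d13 (−1.27 ± 0.16), Cyp2d12 (−1.26 ± 0.15), Cyp2d22 (−1.21 ± 0.11) and Cyp2d11 (−0.74 ± 0.11), with limma adjusted p between 0.0106 and 0.0215. Cyp2c23, an arachidonic acid epoxygenase, fell by 1.03 ± 0.12 (limma adjusted p = 0.0134).

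Among CYP2 genes that did not pass was Cyp2s1, a P450 of airway and other surface epithelium, at −0.31 ± 0.09 (limma adjusted p = 0.0925). Cyp2e1, the ethanol-inducible P450, read 2.04, 0.59 and 0.84 in Ccr2KO cells and 0.76, 1.01 and 0.93 in WT cells, so the untreated Ccr2KO array alone stood high (−0.55 ± 0.39, limma adjusted p = 0.360). Cyp2b19 was above background on too few arrays to be kept, and Cyp2a5 had no matched probe.

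The CYP4 family, which hydroxylates the far end of fatty acids and eicosanoids, had 4 of 13 measured genes lower and 1 higher (median −0.41). Cyp4b1, a lung P450 known for turning some plant toxins and aromatic amines into reactive products, read 6.12, 4.05 and 3.57 in Ccr2KO cells and 6.15, 4.53 and 4.13 in WT cells. All 4 silica arrays lay below both untreated arrays, and the difference was −2.07 ± 0.15 (limma adjusted p = 0.00837). The related pseudogene Cyp4b1-ps2 read 0.95, −1.51 and −1.55 in Ccr2KO cells and 1.0, −0.80 and −1.41 in WT cells (−2.29 ± 0.18, limma adjusted p = 0.00858). Whether these probes tell the gene and its pseudogene apart was not tested. Cyp4a12a, an arachidonic acid hydroxylase of male kidney, was above background on both untreated arrays and on no silica array. It was thus kept through the untreated arrays alone. Its measured means were −5.59 after silica and −3.73 untreated, and it was at least 2.76-fold lower after silica (limma adjusted p = 0.00759). Such an "at least" fold applies where no array of the lower group was above background. It sets each array of that group at the higher of its own value and the lowest value above background on that array. Measured values of the higher group are kept, also where they were not above background, and the bound is then not strict. Cyp4f15, a fatty acid and eicosanoid hydroxylase, fell (−0.60 ± 0.10, limma adjusted p = 0.0281), whereas its chromosome 17 relative Cyp4f16 rose (0.52 ± 0.11, limma adjusted p = 0.0400).

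Glutathione transferases fell in part. Gsta3, an alpha-class enzyme that in mice conjugates the epoxide of aflatoxin, read 6.01, 3.61 and 3.96 in Ccr2KO cells and 5.38, 4.14 and 4.02 in WT cells. Silica and untreated arrays did not overlap (−1.76 ± 0.26, limma adjusted p = 0.0217), and a second probe gave −1.83. Of 7 mu-class genes, all on chromosome 3, Gstm1 (−1.19 ± 0.13, limma adjusted p = 0.0128), Gstm4 (−0.94 ± 0.11, limma adjusted p = 0.0148) and Gstm3 (−0.86 ± 0.14, limma adjusted p = 0.0258) fell. Second probes gave −1.30 for Gstm1, −0.10 for Gstm4 and 0.16 for Gstm3, so the values of Gstm4 and Gstm3 depended on the probe. Gstm2 stood at −0.22 ± 0.15 and did not pass (limma adjusted p = 0.342). In the theta class Gstt3 fell by 0.51 ± 0.10 (limma adjusted p = 0.0355) and Gstt1 stood at −0.29 ± 0.15 (limma adjusted p = 0.244). The pi-class gene Gstp1 (−0.33 ± 0.09, limma adjusted p = 0.0785), Gsta4, whose product conjugates lipid peroxidation aldehydes (−0.31 ± 0.09, limma adjusted p = 0.0906), and Gsto1, a thiol transferase (0.44 ± 0.10, limma adjusted p = 0.0503), did not pass. No pi- or omega-class gene of 5 measured passed in either direction.

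Among genes that rose, Cyp1b1, a P450 of mesenchymal cells that oxidises polycyclic hydrocarbons and oestrogen, had the highest difference. It read −0.22, 2.99 and 3.27 in Ccr2KO cells and −0.93, 2.24 and 2.14 in WT cells. Every silica array lay above both untreated arrays, with a difference of 3.23 ± 0.13, or 9.41-fold (limma adjusted p = 0.00657). Cyp1a1, its companion in AhR biology, read −1.67, −2.53 and −3.28 in Ccr2KO cells and 1.48, −2.85 and −1.20 in WT cells. All of its silica arrays but that of WT day 40 lay below both untreated arrays, and its difference of −2.37 ± 0.76 did not pass (limma adjusted p = 0.102). Of 10 measured genes of the AhR pathway, 1, the partner gene Arnt2, rose and none fell, against 10.5% higher and 9.33% lower among all genes. Arnt2 read −5.39, −3.07 and −3.49 in Ccr2KO cells and −5.87, −3.98 and −4.89 in WT cells (limma adjusted p = 0.0154), and the WT untreated and WT day 40 signals were not above background. Ahr itself (−0.21 ± 0.22), the AhR target genes Tiparp (−0.44 ± 0.18) and Nqo1 (0.23 ± 0.14) and the repressor gene Ahrr (−0.32 ± 0.85, above background on 3 arrays) did not pass, with limma adjusted p between 0.164 and 0.810.

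Cyp7b1, which clears oxysterols and in doing so feeds the ligands of the receptor EBI2, read 1.53, 2.91 and 3.21 in Ccr2KO cells and −0.31, 2.77 and 2.65 in WT cells. The silica arrays lay above both untreated arrays, which themselves differed by 1.84 (2.27 ± 0.38, limma adjusted p = 0.0280). Cyp27a1, the mitochondrial sterol side-chain hydroxylase, read −0.98, −2.83 and −3.06 in Ccr2KO cells and −1.15, −2.20 and −2.51 in WT cells, without overlap (−1.59 ± 0.21, limma adjusted p = 0.0173). The sterol hydroxylase genes Cyp39a1 (−0.38 ± 0.13, limma adjusted p = 0.117) and Cyp46a1 (0.16 ± 0.10, limma adjusted p = 0.304), named after their values were seen, did not pass.

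Cyp24a1, which inactivates vitamin D hormone, read −7.77, −6.77 and −2.31 in Ccr2KO cells and −7.45, −7.51 and −3.55 in WT cells. It was above background on the 2 day 40 arrays alone. Day 40 stood at least 5.93-fold above day 28, with measured means of −2.93 at day 40 and −7.14 at day 28 (limma adjusted p = 0.0232). Over both days it was at least 1.5-fold above untreated (measured means −5.03 after silica and −7.61 untreated, limma adjusted p = 0.0183). Cyp27b1, which makes the hormone, was among the 84 but had no test, since its Ccr2KO day 40 spot carried an outlier mark. It read −5.26 and −5.65 in Ccr2KO cells (untreated, day 28) and −5.03, −3.64 and −5.52 in WT cells, above background on both untreated arrays and WT day 28.

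Cyp26a1, which degrades retinoic acid, read −6.39, −4.64 and −3.90 in Ccr2KO cells and −6.78, −5.86 and −3.81 in WT cells. Untreated and WT day 28 signals were not above background, so Cyp26a1 was kept through silica arrays alone. It was at least 2.10-fold higher after silica (measured means −4.55 after silica and −6.59 untreated, limma adjusted p = 0.0212). Cyp26b1, the enzyme of the same reaction in many mesenchymal tissues, read 1.93, 2.62 and 3.69 in Ccr2KO cells and 3.23, 1.20 and 2.63 in WT cells. Its silica arrays stood above the untreated array in Ccr2KO cells and below it in WT cells, and the difference over both genotypes was −0.04 ± 0.63 (limma adjusted p = 0.967). Of 19 other genes of aldehyde and retinoid handling, 5 fell and 1 rose, against 9.33% lower and 10.5% higher among all genes. Stra6, the retinol uptake receptor, rose by 2.18 ± 0.31 (limma adjusted p = 0.0201). Those lower were the aldehyde dehydrogenase Aldh2 (−1.06 ± 0.14), the retinol dehydrogenase Adh7 (−1.0 ± 0.13), the retinol carrier Rbp4 (−0.95 ± 0.16), the retinaldehyde dehydrogenase Aldh1a1 (−0.87 ± 0.20) and the retinaldehyde reductase Dhrs3 (−0.68 ± 0.10), with limma adjusted p between 0.0168 and 0.0499. Cyp19a1, aromatase, was above background on both Ccr2KO silica arrays alone and was kept through them. It was at least 1.56-fold higher after silica, with WT silica values that were not above background taken as measured (measured means −4.88 after silica and −5.70 untreated, limma adjusted p = 0.0357).

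**Figure D3:**
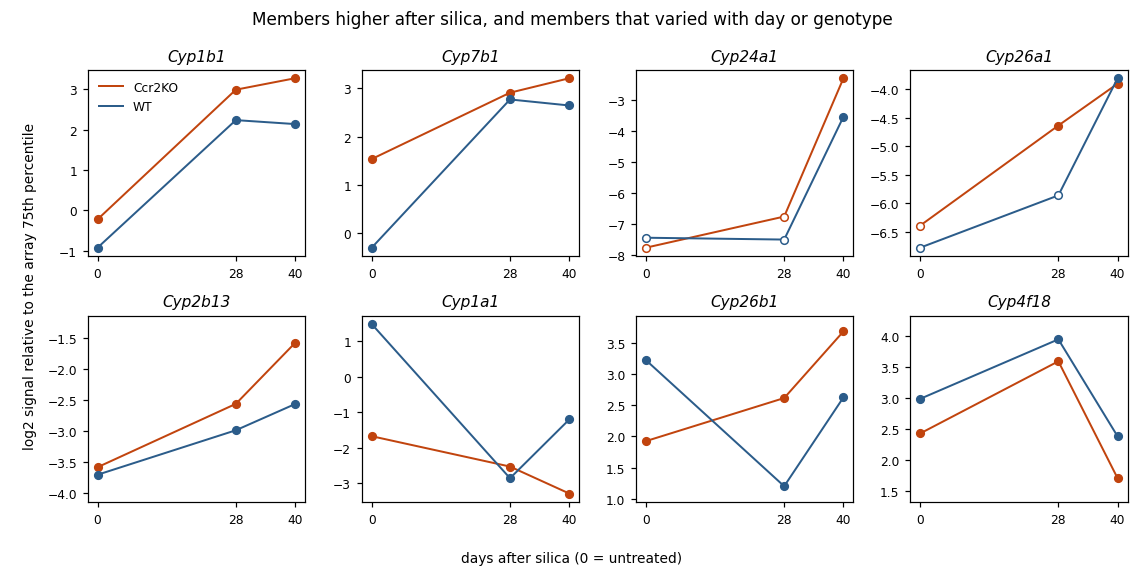
Log2 level on each array for 8 genes that rose after silica or varied with day or genotype, by days after silica, with Ccr2KO and WT as separate lines and open points for signals not above background. Cyp1b1 and Cyp7b1 are high on all 4 silica arrays, and Cyp24a1 is above background at day 40 alone (−2.31 in Ccr2KO and −3.55 in WT). The silica points of Cyp26b1 lie above the untreated point in Ccr2KO and below it in WT, while both lines rise from day 28 to day 40.

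Markers of several lung cell types moved with these genes. For comparison, 9.33% of all genes were lower and 10.5% higher after silica. Of AT1 (flat alveolar epithelium) markers 6 of 7 fell (median −1.37), with mean log2 levels of 3.52 to 3.90 after silica and 4.87 and 5.24 untreated. Of AT2 (surfactant-making epithelium) markers 6 of 9 fell (median −0.72), at 5.88 to 6.25 after silica and 6.56 and 6.65 untreated. Alveolar fibroblast markers fell in 5 of 9 cases (median −1.33), at 2.05 to 2.65 after silica and 3.24 and 3.67 untreated, and mesothelial markers in 5 of 6 (median −1.08), at 1.05 to 1.24 after silica and 2.13 and 2.18 untreated. Of club cell markers, the airway cells rich in P450, none of 6 fell and 1, Scgb3a1, rose (median 0.11), at 3.46 to 4.19 after silica and 3.58 and 3.68 untreated. Pan-endothelial markers had 1 of 7 lower (median −0.18), at 2.63 to 3.41 after silica and 2.95 and 3.29 untreated. Other lists had higher members. Smooth muscle markers had 3 of 6 higher and 1 lower (median 0.36), at 2.97 to 3.69 after silica and 2.90 and 2.94 untreated. Adventitial fibroblast markers had 1 of 7 higher and 1 lower (median 0.53), at 4.67 to 4.99 after silica and 4.52 and 4.57 untreated. Neutrophil markers had 3 of 5 higher (median 0.92), at 2.71 to 5.02 after silica and 3.10 and 3.26 untreated, and pan-leukocyte markers 2 of 7 higher (median 0.43), at 0.95 to 3.94 after silica and 1.57 and 2.58 untreated. Erythroid markers had 3 of 5 lower (median −2.40), at −2.89 to −0.60 after silica and −0.36 and −0.27 untreated. The part of these markers in the results on Fmo, P450 and glutathione transferase genes was not tested, and in bulk RNA fewer cells of a type and less RNA per cell cannot be told apart. Of 6 liver genes checked because many P450s are abundant in liver, 3 were measured, with 1 higher and 1 lower after silica (median 0.19). They stood at −3.28 to −1.92 after silica and −3.26 and −2.75 untreated. The lower gene, albumin (Alb), was above background on the 2 untreated arrays alone.

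Partner genes of the pathway were read from the same fit. The list counts below stand against 19.9% of all genes that passed after silica, 10.5% higher and 9.33% lower. Por, the reductase of microsomal P450s, stood at −0.38 ± 0.11 and did not pass (limma adjusted p = 0.0855). Of 11 measured electron donors and partners, 2 fell and none rose, namely Fdx1, the mitochondrial ferredoxin (−0.60 ± 0.11), and Pgrmc1, a heme-binding P450 partner (−0.52 ± 0.10), both with limma adjusted p = 0.0362 or 0.0363. Of 9 glutathione transferases outside the 5 classes, the mitochondrial Gstk1 (−0.98 ± 0.13) and Gstz1, a maleylacetoacetate isomerase (−0.50 ± 0.09), fell. Hpgds, the prostaglandin D synthase of that list, was above background at day 28 alone and at least 1.20-fold higher after silica (limma adjusted p = 0.00898). Of 20 NRF2 targets and glutathione synthesis genes, 2 rose, the cystine carrier Slc7a11 (2.0 ± 0.24) and heme oxygenase Hmox1 (0.77 ± 0.12), and 1, Osgin1, fell (−1.10 ± 0.18). Slc7a11 read −4.75, −1.97 and −4.01 in Ccr2KO cells and −5.30, −1.60 and −4.50 in WT cells. It was lower at day 40 than at day 28 (−2.47 ± 0.27, limma adjusted p = 0.0337), as pan-leukocyte markers also were. The NRF2 gene Nfe2l2 stood at −0.24 ± 0.11 (limma adjusted p = 0.198).

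Between day 28 and day 40, 3 of the 83 genes differed (limma adjusted p below 0.05), 2 higher and 1 lower at day 40, against 2.75% of all genes, of which 0.201% were higher and 2.55% lower. Over the 70 genes above background on all 6 arrays, 1 was higher and 1 lower, again without a matching share of all genes. Cyp24a1 was the other higher gene and was kept through its 2 day 40 arrays alone. Cyp3a11, the main CYP3A enzyme of mouse liver, read −3.04 at day 40 and −4.49 at day 28 in Ccr2KO cells, and −2.39 at day 40 and −4.63 at day 28 in WT cells. Its difference was 1.84 ± 0.22 (limma adjusted p = 0.0405), while its silica difference of 0.42 ± 0.19 did not pass (limma adjusted p = 0.196). Cyp4f18, which in mouse neutrophils inactivates leukotriene B4, read 1.71 at day 40 and 3.59 at day 28 in Ccr2KO cells, and 2.38 at day 40 and 3.94 at day 28 in WT cells. Both day 40 arrays lay below both day 28 arrays, and the difference was −1.72 ± 0.13 (limma adjusted p = 0.0162). Pan-leukocyte and neutrophil markers moved with it. Of 6 measured macrophage markers, only 1 passed as lower at day 40 (median −1.88). Their mean levels were 0.92 and 0.12 on day 40 and 2.10 and 2.09 on day 28. All 7 measured pan-leukocyte markers were lower at day 40 (median −2.54), at 0.95 and 1.48 on day 40 and 3.52 and 3.94 on day 28, and 4 of 5 neutrophil markers were (median −2.57), at 2.98 and 2.71 on day 40 and 5.02 and 4.91 on day 28. Ptprc, which encodes CD45, was above background on all 6 arrays, at 0.45, 2.14 and −0.61 in Ccr2KO cells and 1.54, 2.62 and 0.29 in WT cells, although the cells were sorted as CD45-negative. The part of these cells in the Cyp4f18 values was not tested.

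Between genotypes, no gene passed. For Ccr2KO minus WT over all days, 0 of the 83 and 0% of all genes had a limma adjusted p below 0.05, and 11 of the 83 had an unadjusted p below 0.05, as had 1525 of all 16420 genes. The lowest limma adjusted p among the 83 was 0.381, shared by Cyp1b1 (0.86 ± 0.13), Fmo4 (−0.62 ± 0.09, Ccr2KO day 40 not above background) and Cyp4a12a, which was above background on the untreated arrays alone. Of the 83 genes 23 had Ccr2KO minus WT of one sign on all 3 days, against 32.9% of all genes. In untreated cells 5 of the 83 differed at least 2-fold between the genotypes, against 4.98% of all genes, each from 1 array a side and so without a test. Cyp1a1 was 8.88-fold lower in Ccr2KO cells (difference −3.15), the highest of the 5. Cyp26b1 (−1.30) was also lower in Ccr2KO cells, and Cyp7b1 (1.84) and Cyp2e1 (1.28) were higher. The last of the 5, Cyp2ab1, named after its values were seen, was not above background on the untreated Ccr2KO array and read −4.42 on the untreated WT array.

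The silica responses of the genotypes were compared in a fit with an interaction term. No response difference passed among the 83, as among all genes (0%), and 5 of the 83 had an unadjusted p below 0.05, as had 619 of all 16420 genes. They were Cyp2e1 (−1.53 ± 0.27), Cyp7b1 (−1.49 ± 0.29), Cyp4a12b (0.96 ± 0.23), Gsta3 (−0.92 ± 0.31) and Gstm6 (−0.66 ± 0.22), as Ccr2KO response minus WT response on the log2 scale, each with a limma adjusted p of 1.0. Cyp4a12b and Gstm6 are named after their values were seen. The median of the 83 genes after silica was −0.40 at day 28 and −0.19 at day 40 in Ccr2KO cells, and −0.39 at day 28 and −0.32 at day 40 in WT cells.

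**Figure D4:**
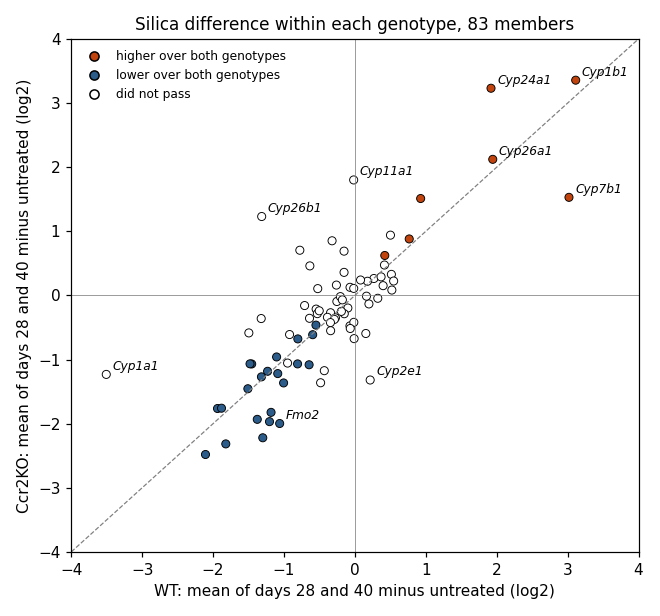
Log2 silica difference (mean of days 28 and 40 minus untreated) in Ccr2KO cells (vertical axis) and in WT cells (horizontal axis) for the 83 genes, with filled points for those that passed over both genotypes and a dashed line of equal response. Cyp7b1 lies below the line, with a Ccr2KO response lower than the WT one by 1.49. Cyp26b1 and Cyp2e1, like some other genes, sit in quadrants of opposite sign.

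Calls after silica rested on few degrees of freedom. With 1 array per group the spread came from 2 residual degrees of freedom of a model of day and genotype, and leaving out either day 28 array, Ccr2KO or WT, left 0 of the 29 silica calls. With the slide row of the array as a block the count was also 0. Untreated arrays lay in row 1 and 3 of the 4 silica arrays in row 2, so the within-row comparison was Ccr2KO day 28 minus Ccr2KO untreated, with a median of −0.40 over the 83 genes, 3.21 for Cyp1b1 and −1.69 for Fmo1. The 3 calls between day 40 and day 28 likewise came to 0 with that block and without any of the 4 silica arrays.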

How the data were processed

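RNA of lung CD45-negative cells was measured on 6 one-colour arrays. Per the file headers, the authors scanned arrays of design 028005 (G2600D scanner) and made the deposited background-subtracted, detrended processed intensity with Feature Extraction 11.0.1.1, protocol GE1_1100_Jul11. The deposited value table of log2 values (30574 probes) differed from the log2 of the mean processed intensity by at most 5e-09, with no scaling between arrays, and R 2.15.1 is named in the submitters' processing notes. Deposited flags marked outlier spots, saturation and signal well above background. The files hold no read depth, and the number of arrays limits the precision.

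Here control spots were removed (59305 of 62976 spots remained), the 109 to 195 outlier spots of each array were treated as missing, and the mean intensity of repeated spots was put on the log2 scale and set relative to the 75th percentile of the array (793 to 1179 signal units). No spot was saturated, and 58.1 to 64.3% of probes were well above background. Probes were named through their RefSeq accession and the GRCm38.p6 gene list (27509 of 55681 with 1 symbol), filtered at 2 of 6 arrays, and the brightest probe stood for its gene. Across genes, Ccr2KO and WT arrays of one day correlated at 0.985 to 0.991. Of 19 reported genes with several probes, 3 (Cyp2j6, Cyp2j13 and Gstm3) had probes of opposite sign after silica, and those of Cyp3a13 lay 1.36 apart. Signal shared between close relatives, such as the Cyp2d, Cyp2b or Gstm genes, was not tested.

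Day plus genotype was fitted over 16420 genes with limma 3.58.1 (R 4.3.3, package data.table, version 1.17.8; 2 residual and 2.22 prior degrees of freedom), and genotype by silica in a second fit (prior 1.87). Adjusted p-values (Benjamini and Hochberg) below 0.05 passed. The p-values measure what these fits left unexplained, not a spread between animals. The genes and lists were chosen with earlier results of these data known. Named genes are those that passed in any comparison, those at least 2-fold lower or higher on all 4 silica arrays, a fixed set of well-known family members whatever their values, and up to 4 passing genes of each related pathway list. Values of some genes that this rule names are not reported here. Alternatives tried were normexp with an offset of 50 (on the median signal, since the planned mean signal was not in the columns used), quantile normalization, the authors' table, no filter, a filter at 6 of 6 arrays, the mean of the probes, the slide row as a block, a robust prior with an intensity trend, and each array left out. Promoter windows came from RefSeq, and 62 of the 83 tested genes had one.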

Additional observations from a re-analysis of the deposited data

Results flagged for a closer look

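For Cyp2e1 and Cyp26b1, every silica array of one genotype moved one way from its untreated array and every silica array of the other genotype moved the opposite way. For Cyp26b1 the silica response of Ccr2KO cells minus that of WT cells was 2.54 (log2), with differences of 0.69 and 1.77 in Ccr2KO cells at days 28 and 40 and −2.03 and −0.60 in WT cells. For Cyp2e1 it was −1.53, with −1.45 and −1.19 in Ccr2KO cells and 0.25 and 0.18 in WT cells. The interaction term did not pass for either gene (limma adjusted p = 1.0), and each untreated value was 1 array. The pattern of signs was not particular to them. It also held for Cyp2ab1, Cyp2w1, Cyp2c67, Cyp2c70, Cyp2d26, Cyp2t4 and Gstp3, named after their values were seen. Its share among all genes was not counted.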

How the results depend on the processing

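The 29 silica calls became 34 with normexp, 30 with quantile normalization, 28 with the authors' table or the mean of the probes, 21 without a filter, 29 with a filter at 6 of 6 arrays and 33 with an intensity trend and a robust prior. With the slide row as a block no gene passed for silica or for day 40 minus day 28 (0 and 0, 1 residual degree of freedom). Leaving out 1 array gave 0 to 25 silica calls, with 0 without the day 28 array of Ccr2KO or of WT. The 3 calls for day 40 minus day 28 became 1 without a filter and 0 to 5 with 1 array left out, with 0 without any of the 4 silica arrays. Ccr2KO minus WT gave 0 in every alternative, as did the difference of the silica responses, which could not be fitted without either untreated array. Over the genes named as passing after silica, 259 alternative values kept direction and call, 137 kept direction and no longer passed, and 0 changed sign. Cyp26b1, which did not pass, reversed to 1.23 without WT day 0 (limma adjusted p = 0.0381) and was −1.31 without Ccr2KO day 0. The cause was not tested. No alternative scaling moved the median of all genes by over 0.1 (log2) in any of these comparisons. No paired analysis was possible because each group had 1 array. Genes near background, such as Cyp24a1, Cyp26a1, Cyp19a1 and Cyp4a12a, have bounds and not measured folds.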

Other observations

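Other enzymes of drug and eicosanoid metabolism were read from the same arrays. Among all genes 10.5% were higher and 9.33% lower after silica. Of 15 measured conjugating and related enzymes outside the glutathione transferases, 4 fell after silica and none rose, namely the aldehyde oxidases Aox3 (−1.47 ± 0.29) and Aox1 (−0.57 ± 0.10) and the sulphotransferases Sult1a1 (−1.28 ± 0.18) and Sult1d1 (−1.26 ± 0.13), with limma adjusted p between 0.0114 and 0.0396. Of 17 arachidonic acid enzymes other than P450s, the prostaglandin dehydrogenase Hpgd fell (−1.60 ± 0.25, limma adjusted p = 0.0234). Hpgds passed as higher over both days, though it was above background at day 28 alone. Of 17 nuclear receptors and liver-type factors that govern P450 genes, Hnf4a rose (limma adjusted p = 0.0322) and Cebpa fell (−0.66 ± 0.11, limma adjusted p = 0.0259). Hnf4a read −4.97, −3.36 and −2.67 in Ccr2KO cells (untreated, day 28, day 40) and −7.84, −3.74 and −3.63 in WT cells, so all 4 silica arrays lay above both untreated arrays, of which the WT one was not above background. Platelet markers, which these lungs could carry, fell in 6 of 6 cases after silica (median −2.88), at −2.57 to −1.67 after silica and 0.18 and 0.19 untreated, and their part in any result was not tested.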
